A study of Mus musculus with 42 samples.

Results

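The proteasome genes described here are the 51 protein-coding mouse genes whose symbols begin with Psma, Psmb, Psmc, Psmd, Psme or Psmg followed by a digit, together with Psmf1 and Adrm1, out of 43629 genes in the count table. They fall into 8 genes of the core alpha ring, 7 of the core beta ring, 4 of the immunoproteasome and thymoproteasome, 10 of the cap base, 8 of the cap lid, 5 activators, 7 assembly chaperones and 1 inhibitor. Psmc3ip meets the naming rule but encodes a recombination cofactor and no part of the proteasome. The 4 pseudogenes with matching symbols were left out. Of the 51 genes, 48 passed the filter on low counts in the kidney fit, the liver fit and the fit of both organs. Psma8, a testis-specific alpha subunit, had 32 counts over all kidney libraries and 44 over all liver libraries. Psmb11, the catalytic subunit of the thymoproteasome, had 34 counts in kidney and 1 in liver, and Psmc3ip had 115 in kidney and 7 in liver. These 3 genes were too low to test.

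The proteasome is the cell's main machine for breaking down proteins tagged with ubiquitin. A core of stacked alpha and beta rings holds the cutting sites, which lie on the beta subunits encoded by Psmb5, Psmb6 and Psmb7. A cap, made of a base with a ring of ATPases and a lid that removes ubiquitin, binds the substrate and feeds it into the core. Interferon and immune cells replace the cutting subunits with those of Psmb8, Psmb9 and Psmb10, which form the immunoproteasome and change which peptides are cut for antigen presentation.

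Libraries were CEL-seq libraries, which count the 3' ends of polyadenylated RNA, from the kidneys and livers of UM-HET3 males, a cross in which each animal carries its own mix of the parental strains' alleles. Mice ate a compound in Purina 5LG6 chow for 1 month from 3 months of age and were 4 months old at sacrifice. The kidney groups were AS-703026, a MEK inhibitor, at 30 ppm, ascorbyl-palmitate, vitamin C joined to a fatty acid, at 6.3 ppm, AZD8055, an mTOR kinase inhibitor, at 20 ppm, enzastaurin, a protein kinase C inhibitor, at 75 ppm, GDC-0941, a phosphoinositide kinase inhibitor, at 50 ppm, and KU0063794, another mTOR kinase inhibitor, at 10 ppm, with 4 libraries each. The controls were 6 kidney libraries of littermates on the chow alone. The liver groups were AS-703026, enzastaurin and GDC-0941 at those doses, with 4 libraries each, and control livers were not analysed here. The labels call the libraries of a group biological replicates, and p-values measure the spread between these libraries.

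The 30 kidney libraries held 863605 to 5691067 counts (median 2248550) and the 12 liver libraries 1084591 to 4361115 (median 2792768). The organ labels held against their markers. The summed level of 5 hepatocyte markers was 168 to 1462 CPM, the unit for counts scaled to the size of the library, in kidney and 80280 to 115310 CPM in liver, and that of 5 kidney tubule markers was 2593 to 8400 CPM in kidney and at most 1.19 CPM in liver. Some libraries stood apart. AZD8055 kidney replicate 4 had a summed adipocyte marker level of 23682 CPM, against 60.9 to 110 CPM in the other AZD8055 kidneys. AS-703026 kidney replicate 4 had the highest summed leukocyte marker level of the kidneys, at 1138 CPM. Satellite-like transcripts took 0.035% to 29.0% of the kidney counts and reached 5% in 11 kidney libraries.

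Most proteasome genes were lower in kidney than in liver. Over the 24 libraries of AS-703026, enzastaurin and GDC-0941, 37 of the 48 genes tested were lower and 7 higher in kidney at an adjusted p under 0.05, where 38.2% of all genes tested were lower and 39.2% higher and 77.4% were called either way. The median log2 change of the 48 genes was -0.79, beside 0.05 over all 12262 genes tested. That split depends on the scaling. TMM, which scales libraries on most genes, put the median of all genes at 0.05, DESeq2's size factors put it at 0.16 and library totals put it at 0.72, and the proteasome genes were called higher and lower as 7 and 37, as 8 and 34, and as 17 and 19 under these scalings. Of all 12262 genes, 4804 were called higher and 4690 lower under TMM, and 5249 and 4314 under DESeq2's size factors. Library totals called 7488 of all genes higher and 2679 lower, so an even split of proteasome genes there is not the split of all genes. The median of the 48 genes lay 0.84 below that of all genes under TMM, and 40 of the 48 lay below it. A change of scaling shifts all genes by nearly the same amount. The same gap and count under library totals therefore follow from the arithmetic and are no further support. In bulk tissue, fewer cells of a type and less RNA per cell cannot be told apart.

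**Figure D1:**
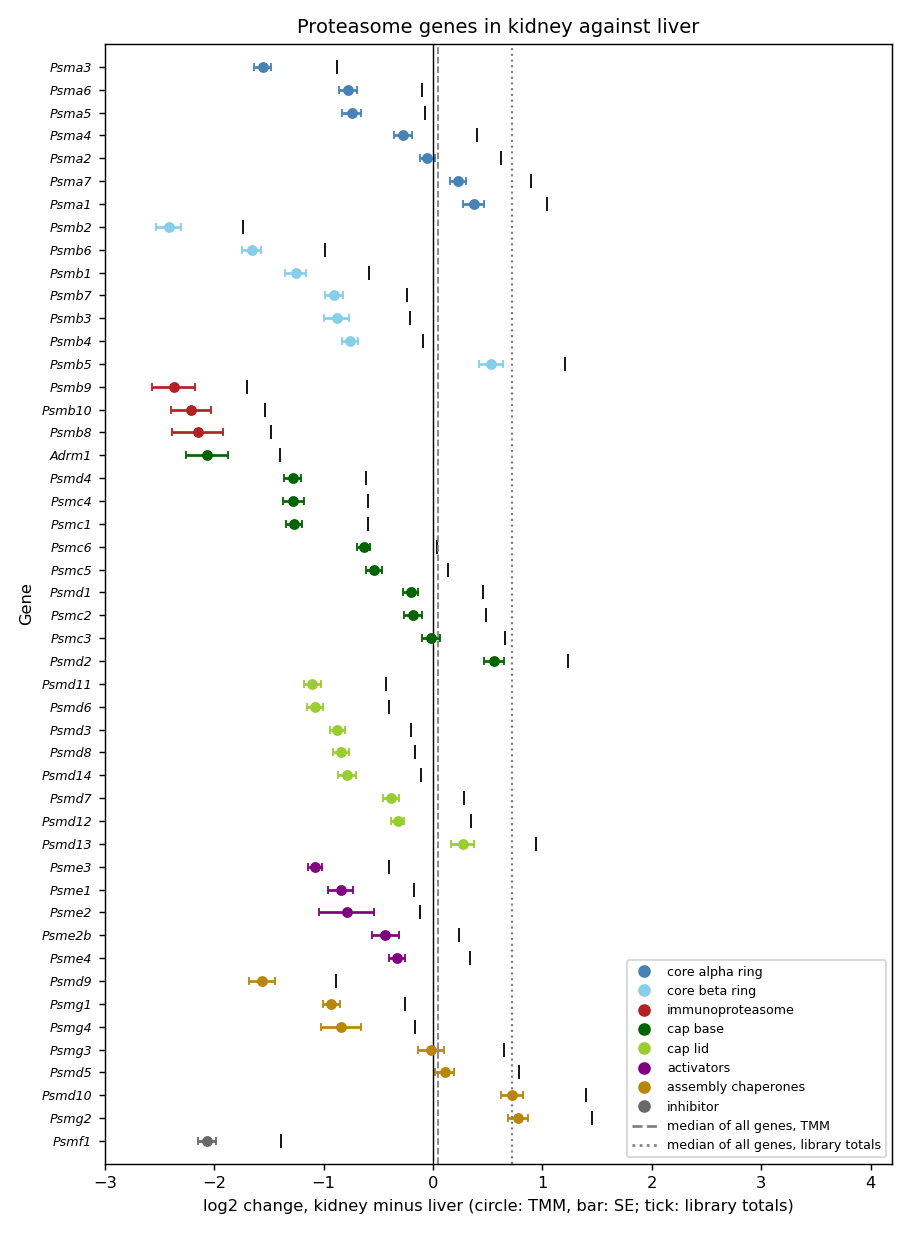
The log2 change, kidney minus liver, of the 48 proteasome genes tested, grouped by particle. Circles are TMM estimates with their standard errors, ticks are the same change scaled by library totals, and the vertical lines mark the median of all genes under each scaling; Psmb2, the immunoproteasome genes, Adrm1 and Psmf1 lie farthest to the left and Psmb5, Psmd2, Psmd10 and Psmg2 farthest to the right.

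The core showed the widest spread between its own parts. In the beta ring 6 of 7 genes were lower in kidney and 1 higher, and in the alpha ring 4 of 7 were lower and 2 higher under TMM. Under library totals 4 beta ring genes were lower and 1 higher, and 1 alpha ring gene was lower and 4 higher. The summed level of the 14 core genes tested was 1378 ± 180 CPM in AS-703026 kidneys and 2648 ± 220 CPM in AS-703026 livers (SD, n = 4 each). It was 1631 ± 115 CPM in enzastaurin kidneys and 2561 ± 93.4 CPM in enzastaurin livers, and 1733 ± 241 CPM in GDC-0941 kidneys and 2406 ± 147 CPM in GDC-0941 livers. On this scaling each kidney sum lay below its liver counterpart by more than the spread within either group.

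Psmb2, a beta subunit with no cutting site, had the largest log2 change of the 48 genes. Its level in the 12 kidney libraries of the shared compounds was 15.3 to 32.6 CPM with a median of 28.4 CPM, against 99.0 to 187 CPM with a median of 147 CPM in the 12 liver libraries. The organs did not overlap, as held for 35.6% of all genes tested, and the log2 change was -2.42 ± 0.11 (SE, edgeR adjusted p = 3.84e-16), or -1.74 under library totals. Psmb6, the caspase-like cutting subunit, was at 53.5 to 110 CPM with a median of 67.4 CPM in kidney and 177 to 262 CPM with a median of 204 CPM in liver, a log2 change of -1.66 ± 0.09 (edgeR adjusted p = 3.78e-15). Psmb7, the trypsin-like cutting subunit, was at 40.2 to 69.0 CPM in kidney and 79.3 to 117 CPM in liver, a log2 change of -0.91 ± 0.08 (edgeR adjusted p = 1.45e-10). Neither gene overlapped between the organs, although Psmb7 shares 405 exon bases with the opposite-strand gene Nek6 and the strand setting of the counting is not given in the sources used here.

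Psmb5, the chymotrypsin-like cutting subunit and the one that proteasome drugs bind, went the other way. Its level was 28.7 to 58.7 CPM with a median of 39.0 CPM in kidney, and 15.9 to 40.3 CPM with a median of 26.2 CPM in liver. The ranges overlapped, and the log2 change was 0.53 ± 0.11 (edgeR adjusted p = 0.000109), or 1.21 under library totals. In the alpha ring, Psma3 was at 23.0 to 33.5 CPM in kidney and 66.3 to 95.6 CPM in liver, a log2 change of -1.56 ± 0.08 (edgeR adjusted p = 1.96e-15). Psma1, an alpha ring gene named after its values were seen, was at 102 to 196 CPM in kidney and 100.2 to 145 CPM in liver, a log2 change of 0.37 ± 0.09. The 7 genes called higher in kidney under all 3 scalings were Psma1, Psma7, Psmb5, Psmd2, Psmd10, Psmd13 and Psmg2, and 19 genes were called lower under all 3. Psmd13 shares 342 exon bases with the opposite-strand Sirt3.

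Ratios between subunits of the same library depend on the scaling only through the pseudocount of 0.5 CPM, which weighs most on low levels. They were chosen after the levels were seen, so they carry no test. The log2 ratio of Psmb2 to Psmb5 was -1.24 to 0.12 in the 12 kidney libraries of the shared compounds and 1.78 to 3.33 in the 12 liver libraries. The log2 ratio of Psmb6 to Psmb5 was 0.25 to 1.04 in kidney and 2.52 to 3.52 in liver, and that of Psma3 to Psma1 was -2.83 to -1.63 in kidney and -0.75 to -0.19 in liver. None of these 3 ratios overlapped between the organs. The 3' counts of 1 gene cannot be set against those of another as amounts of subunit, since capture differs between genes, and only the difference of a ratio between organs is read here.

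The 3 immunoproteasome genes tested were all lower in kidney, and by more than every core gene tested except Psmb2. Psmb8, the counterpart of Psmb5, was at 3.67 to 42.9 CPM with a median of 10.6 CPM in kidney and 35.6 to 90.0 CPM with a median of 56.3 CPM in liver. The ranges overlapped only through AS-703026 kidney replicate 4, and the log2 change was -2.15 ± 0.23 (edgeR adjusted p = 5.97e-09). Psmb9, the counterpart of Psmb6, was at 2.20 to 13.8 CPM with a median of 4.27 CPM in kidney and 18.8 to 48.7 CPM with a median of 23.8 CPM in liver, a log2 change of -2.37 ± 0.19 (edgeR adjusted p = 3.11e-11). Psmb10, the counterpart of Psmb7, was at 2.93 to 27.8 CPM with a median of 9.34 CPM in kidney and 24.6 to 74.6 CPM with a median of 46.5 CPM in liver, a log2 change of -2.21 ± 0.18 (edgeR adjusted p = 3.20e-11). Psmb9 did not overlap between the organs, and Psmb10 overlapped through AS-703026 kidney replicate 4 at 27.8 CPM and enzastaurin liver replicate 1 at 24.6 CPM. Without AS-703026 kidney replicate 4 the changes were -2.49 for Psmb8, -2.58 for Psmb9 and -2.42 for Psmb10, and under library totals they were -1.48, -1.70 and -1.54. Psmb9 shares 212 exon bases with Tap1, a peptide transporter gene on the opposite strand.

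The log2 ratio of Psmb8 to Psmb5 within a library was -3.19 to 0.50 in the 12 kidney libraries of the shared compounds and 0.22 to 2.00 in liver, and the ranges overlapped only through AS-703026 kidney replicate 4. The ratio of Psmb9 to Psmb6 was -4.71 to -2.07 in the 12 kidney libraries and -3.43 to -2.41 in liver, so the liver range lay inside the kidney range. The ratio of Psmb10 to Psmb7 was -3.72 to -0.76 in the 12 kidney libraries and -2.03 to -0.62 in liver, so these ranges overlapped.

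The promoters of the 3 immunoproteasome genes and of Psmb5 are shown because the immunoproteasome genes were among the lowest of the family in kidney and Psmb5 was the cutting subunit that was higher there. Each run is the 250 bases before the RefSeq start on GRCm38.p6, read 5′ to 3′ on the gene's strand. Capitals mark a match to TTCNNNGAA, the core of a gamma-activated site, in Psmb8, and to TGACNNNGC, the core of an antioxidant response element, in Psmb5. The windows are chr17:34197945-34198194 on the plus strand for Psmb8, chr17:34187331-34187580 on the minus strand for Psmb9, chr8:105938393-105938642 on the minus strand for Psmb10 and chr14:54617996-54618245 on the minus strand for Psmb5. The Psmb8 and Psmb9 windows lie inside the wider gene span of GENCODE, and the Psmb10 and Psmb5 windows partly so.
Psmb8: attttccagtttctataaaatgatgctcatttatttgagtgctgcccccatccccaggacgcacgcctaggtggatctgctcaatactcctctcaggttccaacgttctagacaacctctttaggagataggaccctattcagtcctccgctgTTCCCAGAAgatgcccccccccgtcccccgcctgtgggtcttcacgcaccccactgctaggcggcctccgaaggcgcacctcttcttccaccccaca
Psmb9: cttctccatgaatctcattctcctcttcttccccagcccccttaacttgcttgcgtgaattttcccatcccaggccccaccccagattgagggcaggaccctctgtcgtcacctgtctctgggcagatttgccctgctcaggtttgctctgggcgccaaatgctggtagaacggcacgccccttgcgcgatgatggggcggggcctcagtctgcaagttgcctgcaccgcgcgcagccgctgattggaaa
Psmb10: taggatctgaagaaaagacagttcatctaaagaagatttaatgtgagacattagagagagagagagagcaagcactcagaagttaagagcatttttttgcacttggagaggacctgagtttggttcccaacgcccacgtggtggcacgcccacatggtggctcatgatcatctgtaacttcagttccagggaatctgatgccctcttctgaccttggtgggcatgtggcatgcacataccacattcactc
Psmb5: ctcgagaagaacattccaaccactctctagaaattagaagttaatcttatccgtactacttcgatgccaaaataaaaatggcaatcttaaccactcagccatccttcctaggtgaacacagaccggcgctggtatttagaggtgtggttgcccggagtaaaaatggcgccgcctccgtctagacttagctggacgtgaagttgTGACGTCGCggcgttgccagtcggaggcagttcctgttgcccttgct
Both strands were searched, and the 2 motifs do not overlap in these windows. TTCNNNGAA occurred in 7.02% of all 32851 promoter windows and in 2 of the 46 windows of the proteasome genes, those of Psmb8 and Psmg1. TGACNNNGC occurred in 10.161% of all windows and in 6 of the 46, those of Adrm1, Psmb5, Psmb6, Psmc6, Psmd12 and Psmd9. The core of an interferon-stimulated response element, GAAA, any 2 bases and GAAA, occurred in 2.977% of all windows and in those of Psmb3, Psmd4 and Psmd9. The Psmb9 window shares 225 bases with that of Tap1. These matches are letters in a window, and windows were found for 43 of the 51 genes.

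**Figure D2:**
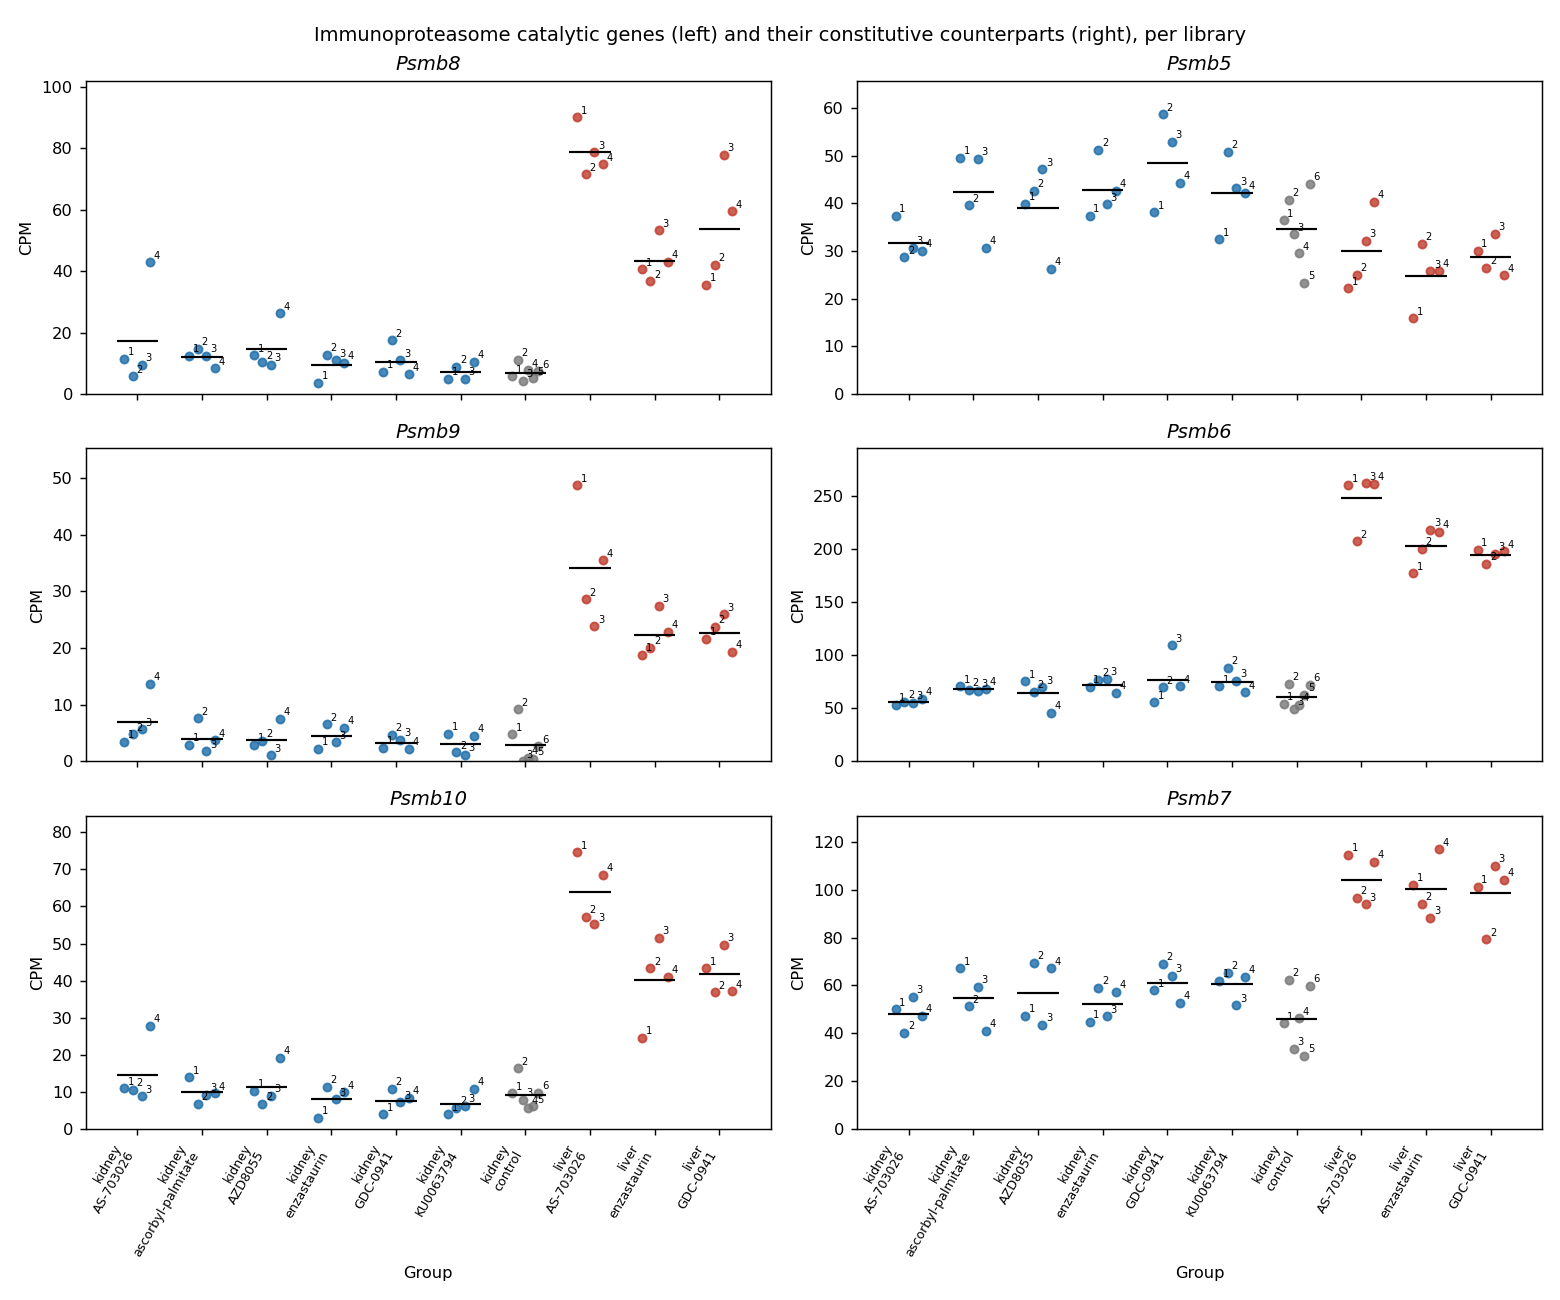
Level in CPM of the immunoproteasome cutting genes Psmb8, Psmb9 and Psmb10 in the left column and of their constitutive counterparts Psmb5, Psmb6 and Psmb7 in the right column, in every library of the 10 groups. Points are libraries with their replicate number, bars are group means, blue is kidney with a compound, grey is kidney control and red is liver. The red points lie mostly higher in every panel but that of Psmb5. AS-703026 kidney replicate 4 is the highest kidney library for Psmb8, Psmb9 and Psmb10.

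In the cap base, 8 of 10 genes were lower in kidney and 1 higher under TMM, against 4 lower and 4 higher under library totals. Psmd4, a ubiquitin receptor, was at 34.8 to 54.3 CPM with a median of 42.7 CPM in kidney and 91.8 to 117 CPM with a median of 105 CPM in liver, a log2 change of -1.28 ± 0.08 (edgeR adjusted p = 7.82e-14). Adrm1, another ubiquitin receptor, was at 1.10 to 6.58 CPM in kidney and 10.9 to 26.2 CPM in liver, a log2 change of -2.07 ± 0.19 (edgeR adjusted p = 3.43e-10). Psmc4, an ATPase of the ring that unfolds the substrate, was at 34.4 to 92.7 CPM in kidney and 150 to 211 CPM in liver, a log2 change of -1.28 ± 0.09. All 3 stayed called lower under library totals, and none overlapped between the organs. Another ATPase of the ring, Psmc3, did not pass the test under TMM and was called higher in kidney under library totals, by 0.66. Psmc3, which shares 215 exon bases with the opposite-strand Slc39a13, was at 83.3 to 181 CPM in kidney and 123 to 168 CPM in liver, a log2 change of -0.02 ± 0.08 (edgeR adjusted p = 0.840), and the log2 ratio of Psmc4 to Psmc3 was -1.26 to -0.78 in kidney and -0.09 to 0.49 in liver.

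In the cap lid, 7 of 8 genes were lower and 1 higher under TMM, against 3 lower and 3 higher under library totals. Psmd14, the lid enzyme that cuts ubiquitin from the substrate, was at 84.2 to 137 CPM in kidney and 129 to 230 CPM in liver. Its log2 change was -0.79 ± 0.08 (edgeR adjusted p = 3.02e-09), but -0.11 under library totals with an adjusted p of 0.214. The summed level of the 10 base genes was 856 ± 68.6 CPM in AS-703026 kidneys and 1419 ± 86.9 CPM in AS-703026 livers. It was 1005 ± 10.6 CPM in enzastaurin kidneys and 1402 ± 85.8 CPM in enzastaurin livers, and 993 ± 91.8 CPM in GDC-0941 kidneys and 1347 ± 72.0 CPM in GDC-0941 livers. That of the 8 lid genes was 665 ± 54.6 CPM in AS-703026 kidneys and 1149 ± 146 CPM in AS-703026 livers (SD, n = 4 each). The lid sum was 761 ± 34.2 CPM in enzastaurin kidneys and 1211 ± 67.3 CPM in enzastaurin livers, and 762 ± 76.2 CPM in GDC-0941 kidneys and 1102 ± 53.5 CPM in GDC-0941 livers.

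The activators open the core without ubiquitin or ATP, and all 5 were lower in kidney under TMM. Psme3, which forms a ring of its own in the nucleus, was at 62.8 to 90.4 CPM in kidney and 144 to 188 CPM in liver, a log2 change of -1.08 ± 0.06 (edgeR adjusted p = 5.12e-14). It was the only activator still called lower under library totals. Psme1, a partner in the interferon-induced activator ring, was at 29.2 to 58.6 CPM in kidney and 36.9 to 81.9 CPM in liver, a log2 change of -0.84 ± 0.11 that fell to -0.17 under library totals. Psme2, the other partner, had a log2 change of -0.79 ± 0.25 at only 1.15 to 7.66 CPM in kidney and 2.39 to 8.65 CPM in liver, and how reads are split between it and its close copy Psme2b is uncertain. The large activator Psme4 was at 73.9 to 125 CPM in kidney and 106 to 146 CPM in liver. Its log2 change was -0.33 ± 0.07 (edgeR adjusted p = 0.000303) under TMM and turned to 0.34 (edgeR adjusted p = 0.000454) under library totals.

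Psmf1, an inhibitor that binds the core, was at 16.7 to 35.2 CPM with a median of 28.0 CPM in kidney and 105 to 147 CPM with a median of 118 CPM in liver. The organs were far apart, and the log2 change of -2.06 ± 0.08 had the smallest adjusted p of the 48 genes in edgeR, 2.17e-17. Of the 7 assembly chaperones, 3 were lower and 2 higher under TMM, against 2 lower and 4 higher under library totals. Psmd9, a chaperone of the base, was at 7.49 to 19.8 CPM in kidney and 27.4 to 39.7 CPM in liver, a log2 change of -1.56 ± 0.12 (edgeR adjusted p = 6.47e-12). Its gene shares 1849 exon bases with the opposite-strand Gm26745, so part of its counts is uncertain. Psmg2, a chaperone of the alpha ring, and Psmd10, a chaperone of the base, had log2 changes of 0.78 ± 0.10 and 0.72 ± 0.10 and were higher in kidney.

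Of 23 genes tested of a list for proteasome synthesis and substrate delivery, 18 were lower in kidney and 1 higher under TMM, with a median of -0.63. The list's call depends on the scaling. Under DESeq2's size factors 17 were lower and 2 higher with a median of -0.51, and under library totals 5 were lower and 6 higher with a median of 0.04. The median of all genes was 0.16 under DESeq2's size factors and 0.72 under library totals. Ddi2, the protease that activates the proteasome's own transcription factor Nfe2l1, was at 66.2 to 148 CPM with a median of 94.7 CPM in kidney and 285 to 455 CPM with a median of 347 CPM in liver, a log2 change of -1.87 ± 0.11. Rad23b, a shuttle for ubiquitin-tagged proteins, changed by -1.67 ± 0.07 and Txnl1, a cap-bound thioredoxin, by -1.40 ± 0.07 on the log2 scale. The gene called higher under TMM was Nfe2l2, a stress-response transcription factor, at 0.31 ± 0.09, and it was called higher under the other scalings too. All 10 genes of an antigen presentation and interferon list were lower in kidney under all 3 scalings, with a median of -2.54 under TMM, -2.43 under DESeq2's size factors and -1.87 under library totals. The changes were -3.52 ± 0.33 for H2-K1, a class I antigen-presenting gene, -3.49 ± 0.18 for B2m, its partner chain, -3.24 ± 0.40 for Nlrc5, the class I transactivator, and -2.81 ± 0.19 for Tap1. Of 8 leukocyte markers tested, 6 were lower and 1 higher in kidney, and Cd79a was at 0 in most libraries of both organs. The summed level of all 10 markers listed was 281 to 1138 CPM in kidneys of the shared compounds and 311 to 1140 CPM in liver. The part of leukocytes in the organ difference was not tested.

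In kidney, the compounds moved few proteasome genes past the threshold. Each compound was compared with the same 6 control libraries, so the 6 comparisons are not independent. Under 5 of the 6 compounds, no proteasome gene passed an adjusted p of 0.05 in edgeR. The share of all 11719 genes called was 0.922% with AS-703026, 0.0427% with ascorbyl-palmitate, 0% with enzastaurin, 0.137% with GDC-0941 and 0.0427% with KU0063794. At an unadjusted p under 0.05 the counts were 8, 6, 3, 11 and 7 of 48. These were 16.7%, 12.5%, 6.25%, 22.9% and 14.6% of the 48 genes, beside 15.1%, 12.5%, 7.81%, 13.1% and 9.75% of all genes tested. DESeq2 called 0 genes in each of these 5 comparisons. Limma voom with sample weights called 1 with ascorbyl-palmitate, Psma2, and 3 with KU0063794, Psma5, Psma7 and Psmc1, all higher, and 0 with the other 3 compounds. The shares of all genes called by DESeq2, by limma voom and in fits without some libraries are not given here or below. Such calls cannot be set against all genes. Leaving out control replicate 2 brought 2 calls with GDC-0941, Psmb3 and Psmd8. A test of any difference among the 7 kidney groups called 0 of 48 genes in edgeR, DESeq2 and limma voom, with 8 at an unadjusted p under 0.05 in edgeR, where 2.51% of all genes were called.

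AZD8055 was the exception, with 2 proteasome genes higher and none lower, 4.17% of the 48, where 5.46% of all genes were called with 3.77% higher and 1.69% lower. Psmd8, a lid subunit (ENSMUSG00000030591, chr7:29174188-29180701 in GENCODE on GRCm38, minus strand), was at 111, 149, 164 and 202 CPM in AZD8055 kidneys, against 104, 139, 103, 98.8, 99.2 and 120 CPM in control kidneys. Replicate 1 lay within the control range and the others above it. The log2 change was 0.50 ± 0.14 (edgeR adjusted p = 0.0297). Psmd5, a chaperone that helps build the base (ENSMUSG00000026869, chr2:34849734-34874968, minus strand), was at 81.8, 91.4, 96.4 and 47.1 CPM in AZD8055 kidneys, against 52.7, 61.2, 44.9, 41.1, 29.0 and 65.9 CPM in control kidneys. Replicates 1 to 3 were above all controls and replicate 4 was within them, and the log2 change was 0.68 ± 0.21 (edgeR adjusted p = 0.0468). The library rich in adipocyte markers, replicate 4, held the highest Psmd8 and the lowest Psmd5 of the group. Without it the changes were 0.34 for Psmd8 (edgeR adjusted p = 0.262) and 0.85 for Psmd5 (edgeR adjusted p = 0.0607). The call of Psmd8 also ended without AZD8055 replicate 3 or control replicate 1, 3, 4 or 5, at edgeR adjusted p from 0.0645 to 0.0828. That of Psmd5 held in only 4 of the 30 fits that left out 1 library, those without control replicate 2 or 6, ascorbyl-palmitate replicate 4 or KU0063794 replicate 1. Limma voom called Psmd5 at an adjusted p of 0.00976 and Psma5 at 0.0363, but not Psmd8 at 0.0741. Neither Psmd8 nor Psmd5 was called in a fit of the 2 groups alone or under library totals, while without the kidney libraries at 5% or more satellite-like counts 5 genes were called higher, Psmc1, Psmd8, Psme1, Psme2b and Psmf1.

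**Figure D3:**
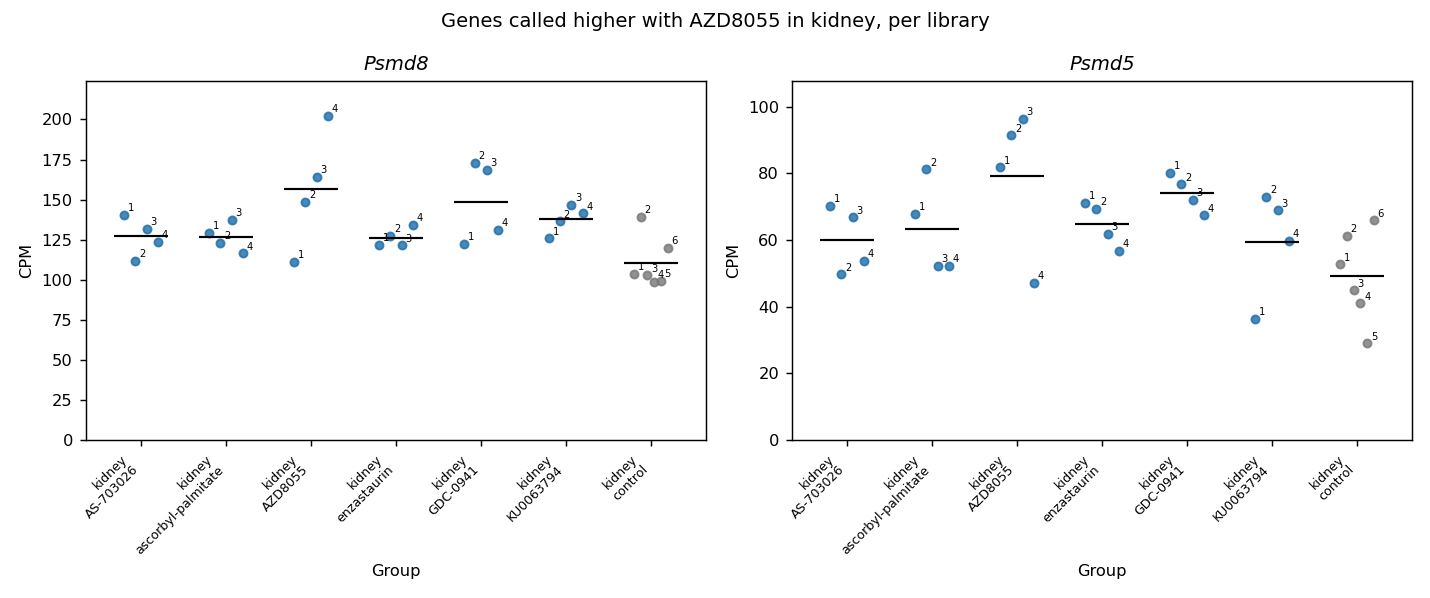
Level in CPM of Psmd8 on the left and Psmd5 on the right in every kidney library, with replicate numbers, group means as bars and control kidneys in grey. Psmd8 reached 202 CPM in AZD8055 replicate 4, and Psmd5 was at 47.1 CPM in that library and at 81.8 to 96.4 CPM in the other AZD8055 kidneys.

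The third gene by p under AZD8055 was Psma5, an alpha ring gene, at 136, 134, 130 and 113 CPM in AZD8055 kidneys and 70.2 to 117 CPM in control kidneys, a log2 change of 0.46 ± 0.15 (edgeR adjusted p = 0.0755). Psmd14 was at 117, 140, 133 and 153 CPM in AZD8055 kidneys and 92.0 to 125 CPM in control kidneys. Psmb8 was at 12.6, 10.4, 9.53 and 26.2 CPM in AZD8055 kidneys and 4.28 to 11.2 CPM in control kidneys, with replicate 4 again the highest. Psmb5 was at 40.0, 42.6, 47.1 and 26.2 CPM in AZD8055 kidneys and 23.4 to 44.1 CPM in control kidneys. In the antigen presentation list, H2-D1, a class I gene with near-identical copies, was at 383, 278, 279 and 999 CPM in AZD8055 kidneys and 138 to 330 CPM in control kidneys, a log2 change of 1.12 ± 0.29 (edgeR adjusted p = 0.0225) that was 0.47 without replicate 4 (edgeR adjusted p = 0.415). The call also ended without control replicate 3 or 4, at 1.03 and 1.01 (edgeR adjusted p = 0.0583 and 0.0633). Replicate 4 was far above the rest, the other 3 were at 278 to 383 CPM, and its summed level over the list was 3080 CPM, against 841 to 926 CPM in the other AZD8055 kidneys. The part of the adipose RNA in these values was not tested.

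The medians of the 48 genes were small in every kidney comparison. They were -0.01 with AS-703026, 0.13 with ascorbyl-palmitate, 0.21 with AZD8055, 0.18 with enzastaurin, 0.16 with GDC-0941 and 0.16 with KU0063794 on the log2 scale, beside 0.02, 0.00, 0.03, -0.01, 0.01 and -0.02 over all genes tested. Of the 48 genes, 23, 30, 42, 44, 35 and 36 had a positive change in these comparisons, which is 47.9%, 62.5%, 87.5%, 91.7%, 72.9% and 75% of them, beside 52.8%, 50%, 52.9%, 48.8%, 50.9% and 47% of all genes. Under library totals the counts were 18, 34, 36, 43, 29 and 37. These counts share the controls, and no gene among them passed the test but Psmd8 and Psmd5. The summed level of the 14 core genes was 1378 ± 180 CPM with AS-703026, 1651 ± 148 CPM with ascorbyl-palmitate, 1631 ± 176 CPM with AZD8055, 1631 ± 115 CPM with enzastaurin, 1733 ± 241 CPM with GDC-0941 and 1676 ± 151 CPM with KU0063794 (SD, n = 4 each), against 1418 ± 164 CPM in control kidneys (SD, n = 6). The mean with AS-703026 lay within the spread of the controls, and the other 5 means lay above the control mean by more than the SD of either group. Libraries overlapped in all 5, with controls at 1198 to 1649 CPM and the lowest library of each of these groups at 1397 to 1504 CPM. These sums carry no test.

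**Figure D4:**
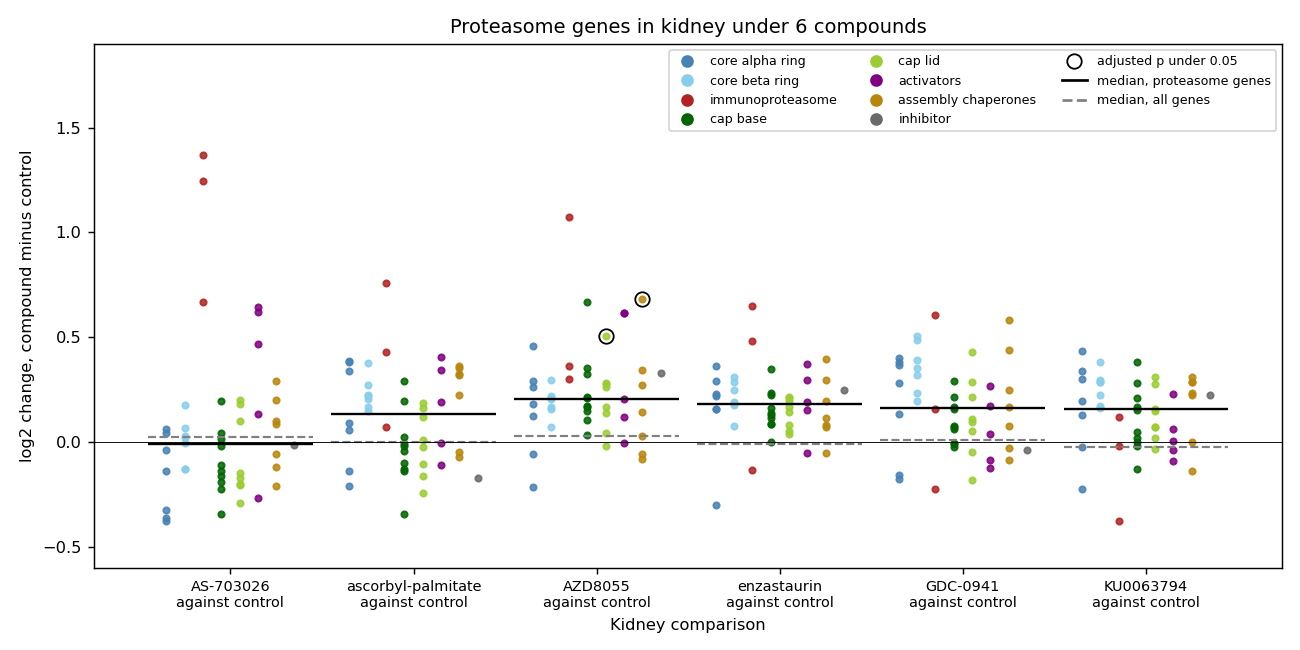
The log2 change of the 48 proteasome genes in kidney, compound minus control, for the 6 compounds, coloured by particle. Black lines are the medians of these genes, dashed grey lines the medians of all genes, and rings mark Psmd8 and Psmd5 under AZD8055, the 2 genes with an adjusted p under 0.05; the red points far above 0 under AS-703026 are Psmb8 and Psmb9.

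In the other kidney comparisons the 3 genes with the smallest p are described, none of which passed the test in edgeR. With AS-703026 they were Psmb8, Psme1 and Psmd7, a lid gene. Psmb8 was at 11.5, 5.74, 9.55 and 42.9 CPM in AS-703026 kidneys, against 5.75, 11.2, 4.28, 7.70, 5.09 and 7.40 CPM in control kidneys. Replicate 4 stood far above both groups, and the log2 change of 1.37 ± 0.43 (edgeR adjusted p = 0.107) was 0.40 without it (edgeR adjusted p = 0.790). With no filter on low counts, edgeR called Psmb8 at an adjusted p of 0.0181. Psme1 was at 39.1, 35.4, 31.2 and 58.6 CPM in AS-703026 kidneys and 16.4 to 36.0 CPM in control kidneys, a log2 change of 0.62 ± 0.24 (edgeR adjusted p = 0.208) that was 0.40 without replicate 4. The summed level of Psmb8, Psmb9 and Psmb10 was 84.5 CPM in AS-703026 kidney replicate 4, 21.1 to 25.9 CPM in the other AS-703026 kidneys and 19.1 ± 9.38 CPM in control kidneys (SD, n = 6). The summed leukocyte markers were 611, 296, 336 and 1138 CPM in AS-703026 kidneys 1 to 4 and 175 to 728 CPM in control kidneys. The part of leukocytes in replicate 4 was not tested. The inner medulla markers Cryab and Aqp4 were higher with AS-703026, by 3.92 ± 0.71 and 3.58 ± 0.80 on the log2 scale, and by 1.92 and 2.06 without replicate 4, where neither was called (edgeR adjusted p = 0.224 and 0.352). The call of Cryab also ended without control replicate 4 or 5, and that of Aqp4 without control replicate 1, 3, 4 or 5 or enzastaurin replicate 4. These 2 markers also had changes of 2.33 and 2.5 with ascorbyl-palmitate and of 1.09 and 1.67 with GDC-0941, where neither was called. With AZD8055, enzastaurin and KU0063794 they lay between -0.93 and 0.60, also not called.

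With ascorbyl-palmitate they were the alpha ring genes Psma2, Psma5 and Psma7. Psma2 was at 196, 202, 200 and 171 CPM in ascorbyl-palmitate kidneys and 125 to 180 CPM in control kidneys, a log2 change of 0.38 ± 0.13 (edgeR adjusted p = 0.182). With enzastaurin they were Psmc1, an ATPase of the base, Psma5 and Psma2. Psmc1 was at 95.3, 97.0, 93.7 and 100.5 CPM in enzastaurin kidneys and 65.4 to 85.7 CPM in control kidneys, a log2 change of 0.35 ± 0.12 (edgeR adjusted p = 0.420). Its groups did not overlap, as held for 1.73% of all genes in that comparison.

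With GDC-0941 they were Psmb3, a beta ring gene with no cutting site, Psmd8 and Psma2. Psmb3 was at 73.9, 101, 95.8 and 72.4 CPM in GDC-0941 kidneys and 50.0 to 72.9 CPM in control kidneys, a log2 change of 0.51 ± 0.15 (edgeR adjusted p = 0.133). Psmd8 was at 122, 173, 169 and 131 CPM in GDC-0941 kidneys, a log2 change of 0.43 ± 0.14 (edgeR adjusted p = 0.187). Psma7 and Psmd5 lay above all controls in all 4 GDC-0941 kidneys, where 2.55% of all genes did not overlap in either direction.

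With KU0063794 they were Psmc1, Psma5 and Psma7. Psmc1 was at 94.4, 95.7, 109 and 99.8 CPM in KU0063794 kidneys, above every control, a log2 change of 0.38 ± 0.12 (edgeR adjusted p = 0.271), and 1.87% of all genes did not overlap there. AZD8055 at 20 ppm and KU0063794 at 10 ppm are both mTOR kinase inhibitors given at different doses, so their values are only set side by side. Psmd8 was at 126, 136, 147 and 141 CPM and Psmd5 at 36.4, 73.1, 68.9 and 59.7 CPM in KU0063794 kidneys. The remaining genes without overlap in kidney were Psma4, lower in all AS-703026 kidneys than in any control at 41.6 to 49.8 CPM against 50.8 to 70.6 CPM, where 3.49% of all genes did not overlap, and Psmc3, higher with ascorbyl-palmitate at 147 to 168 CPM against 131 to 145 CPM, where 2.29% did not. With AZD8055 no proteasome gene was free of overlap, beside 2.56% of all genes.

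In liver, where control livers were not analysed here, the compounds were set against each other, and AS-703026 livers had the highest mean summed level of the immunoproteasome genes. Against enzastaurin, 1 of 48 genes was higher with AS-703026, Psmb8, and none lower, where 2.96% of all 9490 genes were called with 1.93% higher and 1.03% lower. Psmb8 (ENSMUSG00000024338, chr17:34197721-34201454, plus strand) was at 90.0, 71.6, 78.6 and 74.8 CPM in AS-703026 livers, against 40.6, 36.7, 53.3 and 43.1 CPM in enzastaurin livers. The groups did not overlap, and the log2 change was 0.88 ± 0.21 (edgeR adjusted p = 0.0312). Psmb10 was at 74.6, 57.2, 55.2 and 68.5 CPM in AS-703026 livers, against 24.6, 43.3, 51.5 and 41.0 CPM in enzastaurin livers, again without overlap, a log2 change of 0.67 ± 0.18 (edgeR adjusted p = 0.0578). DESeq2 and limma voom called Psmb10 as well, at adjusted p of 0.0254 and 0.0498, while edgeR called it in 1 of the 12 fits that left out a library. Of all genes tested, 8.35% did not overlap in that comparison. Psmb9 was at 48.7, 28.6, 23.9 and 35.5 CPM in AS-703026 livers, against 18.8, 20.1, 27.5 and 22.9 CPM in enzastaurin livers, with overlap, a log2 change of 0.63 ± 0.21 (edgeR adjusted p = 0.145).

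The share of satellite-like counts also separated these livers, at 0.857% to 1.77% in AS-703026 livers and 0.124% to 0.645% in the other livers. With the log2 of that share as a covariate, a term added after the data were seen, the change of Psmb8 was 0.70 with an edgeR adjusted p of 0.705, and that of Psmb10 was 0.32 with an edgeR adjusted p of 0.870. The group and that share cannot be told apart. Leaving out AS-703026 replicates 1, 3 or 4 or enzastaurin replicates 1, 2 or 4 also ended the call of Psmb8, with edgeR adjusted p from 0.0557 to 0.1001. Leaving out enzastaurin replicate 3 brought a second call, Psmb10. The summed leukocyte markers were 471 to 684 CPM in AS-703026 livers and 311 to 1140 CPM in enzastaurin livers, so these ranges overlapped. Enzastaurin replicate 3 held the 1140 CPM. Of 8 leukocyte markers tested, 5 had a positive change against enzastaurin and 0 were called.

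Against GDC-0941, no gene of the 48 was called in edgeR, where 3.22% of all genes were called, and 5 were at an unadjusted p under 0.05. DESeq2 called 2, Psmb6 and Psmb10, and limma voom called Psmb6. In edgeR 1 gene was called without AS-703026 replicate 2 (Psmb6), without enzastaurin replicate 1 (Psmb10) and without GDC-0941 replicate 3 (Psmb8). Psmb6 was at 260, 208, 262 and 261 CPM in AS-703026 livers and 200, 186, 196 and 198 CPM in GDC-0941 livers. Every AS-703026 liver was higher, and the log2 change was 0.36 ± 0.09 (edgeR adjusted p = 0.0514). Psmb10 was at 43.3, 36.8, 49.6 and 37.1 CPM in GDC-0941 livers, below every AS-703026 liver, a log2 change of 0.63 ± 0.18 (edgeR adjusted p = 0.0701). Psma2 also did not overlap, and 9.58% of all genes did not. Psmb8 was at 35.6, 42.2, 77.8 and 59.4 CPM in GDC-0941 livers and overlapped with AS-703026 livers through replicate 3. Of 8 leukocyte markers tested, all 8 had a positive change against GDC-0941, with a median of 0.38, and 1 was called higher. Their summed level was 321 to 742 CPM in GDC-0941 livers, a range that holds that of AS-703026 livers. The part of leukocytes in these differences was not tested. The third gene by p was Psmd3, a lid gene, at 121, 101, 115 and 115 CPM in AS-703026 livers and 83.9 to 104 CPM in GDC-0941 livers, a log2 change of 0.29 ± 0.10 (edgeR adjusted p = 0.146).

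Enzastaurin against GDC-0941 livers had 0 of 48 genes and 0% of all genes called in edgeR, with 2 proteasome genes at an unadjusted p under 0.05. DESeq2 and limma voom called 0 of 48. Psmd3 was at 98.5, 128, 109 and 119 CPM in enzastaurin livers, a log2 change of 0.28 ± 0.10 (edgeR adjusted p = 0.522). Psmc6 and Psmg3 lay above and Psmd1 below in every enzastaurin liver, where 4.5% of all genes did not overlap. A test of any difference among the 3 liver groups called no proteasome gene in edgeR, with 5 at an unadjusted p under 0.05, beside 3.2% of all genes called, and its smallest adjusted p was 0.0587, for Psmb8. DESeq2 called 3 in that test, Psmb6, Psmb8 and Psmb10, and limma voom 0. The summed level of the 3 immunoproteasome genes was 177 ± 26.3 CPM in AS-703026 livers, 106 ± 20.1 CPM in enzastaurin livers and 118 ± 24.4 CPM in GDC-0941 livers (SD, n = 4 each). That of the 14 core genes was 2648 ± 220, 2561 ± 93.4 and 2406 ± 147 CPM in the same groups.

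The antigen presentation list moved unevenly in liver. H2-D1 was at 1177, 1219, 1313 and 1214 CPM in AS-703026 livers, against 493, 564, 976 and 618 CPM in enzastaurin livers, a log2 change of 0.90 ± 0.20 (edgeR adjusted p = 0.0260), and it was the only gene of the list of 10 called there. The call ended without AS-703026 replicate 3 or enzastaurin replicate 1, 2 or 4, at edgeR adjusted p from 0.0689 to 0.0896. Against GDC-0941 the only gene called was Tap1, which was lower. Tap1 was at 34.5, 15.5, 25.1 and 21.9 CPM in AS-703026 livers, against 46.1, 37.2, 44.6 and 43.7 CPM in GDC-0941 livers, a log2 change of -0.78 ± 0.18 (edgeR adjusted p = 0.0241). The call ended without AS-703026 replicate 3 or 4 or GDC-0941 replicate 1, 3 or 4, at edgeR adjusted p from 0.0593 to 0.0808. Its neighbour Psmb9, which shares exon bases with it, had a log2 change of 0.59 ± 0.21 in the same comparison (edgeR adjusted p = 0.155). No gene of the synthesis and delivery list was called between 2 liver groups. Nfe2l2 was called in the test of any difference among the livers, with an edgeR adjusted p of 0.0363.

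Whether the compounds' differences depended on the organ was tested in the 24 libraries of the shared compounds. The interaction test called 0 of 48 proteasome genes and 0.163% of all genes, with 7 proteasome genes at an unadjusted p under 0.05 and a smallest adjusted p of 0.233, in edgeR. DESeq2's likelihood ratio test called 2, Psma6 and Psmb6, and limma voom 0. The immunoproteasome genes had a smallest adjusted p of 0.815 in that edgeR test. A test that calls no gene does not show that these genes vary alike with the compound in both organs.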

How the data were processed

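The data are raw read counts per gene that the authors deposited for 42 CEL-seq libraries. Per the submitters' processing notes, the tools were bcl2fastq 1.8.4, Trimmomatic 0.32, STAR 2.5.2b and featureCounts 1.5, with the mm10 genome. The sources used here do not give the annotation release, whether counting used strand, or any use of molecular identifiers. Counts of genes that overlap or have near-identical copies are therefore uncertain. Gene symbols came from GENCODE M21 on GRCm38, which matched 42548 of the 43629 gene IDs, and 1081 stayed unmatched.

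Tests were edgeR 4.0.16 quasi-likelihood tests in R 4.3.3 with TMM scaling, the filterByExpr filter on low counts and Benjamini-Hochberg adjustment over all genes tested, at a threshold of 0.05. The 30 kidney libraries entered 1 fit, the 12 liver libraries another, and the 24 libraries of AS-703026, enzastaurin and GDC-0941 a fit for the organ and the interaction. Levels are counts scaled to library size (CPM) from 1 TMM scaling over all 42 libraries. Ratios within a library used a pseudocount of 0.5 CPM. The adjusted p of single genes and of the test across groups comes from these fits unless DESeq2 1.42.0 or limma 3.58.1 is named. Results under DESeq2's size factors are edgeR tests with that scaling, not DESeq2's own test.

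The genes named are the cutting subunits, activators, ubiquitin receptors and a few others listed by role, the members past the threshold (at most 10 a comparison), the 3 members with the smallest p in each comparison of 2 groups, and at most 4 called genes of each companion list. Genes without overlap between groups, Psma1 and the Psmc3 contrast were chosen after their values were seen. The members and lists were chosen with earlier results of these data known. Of the 27 genes of the synthesis and delivery list, 26 were found. Of the genes that the naming rule picks, 1 is not reported here. No 2 libraries of a group agreed within counting noise, the lowest chi-square per gene being 4.09. Alternatives were other scalings, no filter, DESeq2, limma voom, a replicate block, fits of the 2 groups alone, a satellite-like covariate and leaving out libraries. Satellite-like transcripts are 13 gene models with 5% or more of their sequence words of 24 bases also found in Gm10800.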

Additional observations from a re-analysis of the deposited data

Results flagged for a closer look

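In 170 groups of 4 to 6 libraries, each for 1 gene or summed particle level, 11 held a library whose gap to the nearest other passed Dixon's criterion, where chance gives about 1 in 20.

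Of these, 3 were in AS-703026 kidney replicate 4. It held Psmb8 at 42.9 CPM with the next library of its group at 11.5 CPM and Psmb10 at 27.8 CPM with the next at 10.9 CPM. Its summed level of the 3 immunoproteasome genes was 84.5 CPM with the next at 25.9 CPM. That sum contains Psmb8 and Psmb10, so these 3 are not separate results. Control kidney replicate 2 had the highest summed immunoproteasome level of its group, at 36.7 CPM with the next at 20.1 CPM.

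The other 7 were the lowest of their groups. Psma7 was at 159 CPM in AZD8055 kidney replicate 4 with the next at 234 CPM, and the summed cap lid genes were at 613 CPM in ascorbyl-palmitate kidney replicate 4 with the next at 722 CPM. In liver, AS-703026 replicate 2 had Psmb6 at 208 CPM with the next at 260 CPM and the summed cap lid genes at 930 CPM with the next at 1212 CPM. Psme1, an activator subunit, was at 63.4 CPM in AS-703026 liver replicate 3 with the next at 70.4 CPM, and at 54.4 CPM in GDC-0941 liver replicate 2 with the next at 71.6 CPM. Psmd5 was at 44.5 CPM in GDC-0941 liver replicate 1 with the next at 67.0 CPM.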

How the results depend on the processing

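Between organs 42 to 44 of the 48 genes were called when 1 library was left out, and 36 under library totals, where Psme4 turned to 0.34. Library totals called 7488 of all genes higher and 2679 lower between organs. With AZD8055 the 2 calls became 1 in edgeR with DESeq2's size factors, 1 with no filter and 0 with the replicate block. They became 0 in a fit of the 2 groups alone, 0 under library totals and 5 without the kidney libraries at 5% or more satellite-like counts. DESeq2's own test called both, Psmd8 at an adjusted p of 0.0164 and Psmd5 at 0.0398. The number called with AS-703026 in kidney was 1 with no filter. Limma voom called 1 with ascorbyl-palmitate and 3 with KU0063794. In liver, AS-703026 against enzastaurin gave 2 calls with DESeq2, 2 with no filter, 2 with limma voom and 0 with the satellite-like covariate. AS-703026 against GDC-0941 gave 2 calls with DESeq2, 2 with no filter, 1 with limma voom and 1 in a fit of the 2 groups alone. The test of any difference among livers gave 3 with DESeq2 and 2 with no filter, and the interaction gave 2 with DESeq2. Leaving out 1 library gave 0 to 3 calls with AZD8055, 0 to 2 with GDC-0941 in kidney, 0 to 2 for AS-703026 against enzastaurin, 0 to 1 for AS-703026 against GDC-0941, 0 to 2 for any difference among livers and 0 in the other comparisons. Over all genes, DESeq2's size factors called 425 higher and 212 lower with AZD8055, and library totals called 269 and 312. No share of all genes is given for the alternatives other than scalings, so those counts cannot be set against all genes. The library totals, the satellite-like covariate and the removal of the libraries rich in such counts were chosen after seeing the data, and the cause of these changes was not tested.

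Libraries of the same replicate number did not deviate together in the median, with median correlations of -0.03 to 0.01 within kidney and -0.07 to -0.01 within liver. Single pairs of kidney libraries ranged from -0.526 to 0.511. Kidney and liver libraries of the same compound and number correlated at -0.08 to 0.13, with a median of 0.02. The numbers were not taken as pairs, and the sample titles do not say whether the organs came from the same mice. With the replicate block, 43 genes were called between organs, 7 higher and 36 lower in kidney, Psmb8 remained the 1 call in liver between AS-703026 and enzastaurin, and 0 were called in every other comparison. Of 378 values of named genes under alternatives other than leaving out a library, 348 kept their direction and side of the threshold. That total includes the organ differences and genes that were never called. Among the compound calls, Psmd5 and Psmd8 with AZD8055 were each called under 4 of 9 such alternatives. Psmb8 in liver between AS-703026 and enzastaurin was called under 7 of 8. Counts under about 10 CPM, such as those of Psmb9, Psme2 and Adrm1 in kidney, are too few to show small differences.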

Other observations

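The 3 proteasome-named genes too low to test were spread unevenly over libraries. Psmb11, the thymoproteasome subunit whose gene lies beside Psmb5, had 12 of its 34 kidney counts in 1 ascorbyl-palmitate library, was at 0 in the other 3 ascorbyl-palmitate kidneys, and reached at most 6 counts in any other kidney library. Psmc3ip, the recombination cofactor, had counts in 28 of the 30 kidney libraries, with at most 11 in any of them, and in 5 of the 12 liver libraries, with at most 2. Psma8 had at most 6 counts in a kidney library and reached 12 in 1 GDC-0941 liver. These counts are too few for a comparison of levels.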
